A study of Homo sapiens with 6 samples.

Results

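Translation initiation factors were taken as the genes of the deposited table whose symbols start with EIF and a digit from 1 to 6. Symbols with a hyphen were left out, as were symbols ending in P and a number, which mark pseudogenes. The inhibitor genes EIF4EBP1, EIF4EBP2 and EIF4EBP3 were kept although their symbols end that way. The rule gave 56 of 62703 genes and used no measured value. The group itself was chosen with earlier results of these data known, the rise of EIF5 among them. The cells were 786-O, an established line from a human clear cell renal cell carcinoma, sampled as 3 control libraries (genotype WT) and 3 libraries from cells in which OGT was overexpressed. OGT encodes the transferase that adds O-GlcNAc to serine and threonine residues of intracellular proteins. How OGT was introduced, and whether a library came from a clone or a separate culture, is not given in the sources used here, so the tests speak of the spread among these 6 libraries, which may be technical. In bulk RNA, fewer cells with a transcript and less of it per cell cannot be told apart. Levels are TPM, which is scaled by transcript length and by library, and changes are OGT minus control on log2(TPM + 1), a scale that understates changes of low genes. Values after ± are SD with n = 3 libraries in each group.

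Initiation factors bring the small ribosomal subunit to the capped end of an mRNA, scan for a start codon and then join the large subunit. eIF2 delivers the initiator tRNA and is recharged by its exchange factor eIF2B, a step that stress kinases block by phosphorylating the alpha subunit of eIF2. eIF4E binds the cap, eIF4G bridges it to eIF3 on the ribosome, eIF4A unwinds RNA, and the 4E-binding proteins hold eIF4E back when mTORC1 is inactive.

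The sequence that these factors read is the start codon with its neighbours, and several initiation factor mRNAs are known for unusual starts. The stretches below run from 12 bases before the start codon to 7 after it in the principal GENCODE release 29 transcript (GRCh38), 5′ to 3′. Capitals mark the start codon and the bases at positions -3 and +4, counted with the first base of the codon as +1, where A or G at -3 and G at +4 favour initiation. They are shown for the genes whose products set start stringency, for the member with a start other than ATG, and for pairs of near copies.
EIF1: gaatcgtatCgtATGTccgcta
EIF1B: cactagtatCgcATGTccacta
EIF5: taataagccAaaATGTctgtca
EIF1AX: gccgccaccGccATGCccaaga
EIF4G2: caagccgccAaaGTGGagagtg
EIF2S3: tcttttggcAacATGGcgggcg
EIF2S3B: tcttttggcAacATGGcgggcg
EIF3C: cgcgccgtcGccATGTcgcggt
EIF3CL: cgcgccgtcGccATGTcgcggt
EIF5A: aagcctcttAaaATGGcagatg
EIF5AL1: aagcctcttAaaATGGcagatg

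EIF1 and EIF1B have C at -3 and T at +4 and so lack both favoured bases, as do EIF3B and EIF4E1B among the 55 members for which a start could be read. The weak start of EIF1 is known as part of a feedback loop in which eIF1 limits its own translation. EIF4G2 was the member with a GTG start, a known property of this mRNA, and the other 54 start with ATG. A purine stood at -3 in 48 members (87.3%, against 85.3% of 17754 genes with such a transcript) and G at +4 in 27 (49.1%, against 50.7%). EIF3C and EIF3CL, EIF2S3 and EIF2S3B, and EIF5A and EIF5AL1 carry the same letters in this window, and reads of such near copies can be split between them, so the values of these 6 genes are uncertain.

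OGT itself was 23.11, 22.57 and 23.62 TPM in the control libraries and 352.74, 352.92 and 270.87 TPM with OGT, higher in each library labelled as overexpressing, and the deposited value does not separate the cell's own transcript from an introduced one. All tested genes together had a median log2 change of 0.30, which fell to 0.02 after quantile normalization and to -0.09 after median centring, which subtracts each library's own median, and changes below are to be read against that shift. Of 9 fixed markers of the line, 8 (PAX8, PAX2, CDH6, VIM, KRT8, KRT18, CA12 and EPAS1) were at 1 TPM or more in every library and LRP2 was not, and CDH6 was 28.69 TPM in control replicate 2 against 2.69 and 3.05 TPM in the other controls. Summed leukocyte markers were at most 0.37 TPM in 5 libraries and 12.36 TPM in control replicate 1, nearly all of it PTPRC at 12.23 TPM, and endothelial and fibroblast marker sums were at most 4.77 and 2.4 TPM. Member calls that change when either library is left out are named beside the gene.

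Of the 56 genes, 52 passed the filter of at least 1 TPM in at least 3 libraries. EIF4E3 passed only through the OGT libraries. EIF4E1B was listed at 0 in every library, and EIF2S3B, EIF4EBP3 and EIF5AL1 stayed at or below 0.63, 0.61 and 0.40 TPM. Among the tested members 33 rose (63.5%) and 3 fell (5.77%) with OGT overexpression, where 39.1% of all 12645 tested genes were called higher and 9.70% lower (limma, Benjamini-Hochberg adjusted p below 0.05). Without EIF4E3 it was 32 of 51 that rose. Their median log2 change was 0.45, and 12 of them (23.1%) rose at least 2-fold, against 10.7% of all tested genes. The groups did not overlap for 36 members higher and 4 lower in OGT libraries, beside 5841 and 1563 of the 12645 tested genes. The TPM of the 55 members other than EIF1AY summed to 8395.4, 8564.0 and 8544.5 in control and 9734.4, 9774.5 and 9719.1 in OGT libraries. The plot of levels shows every tested member in every library.

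**Figure D1:**
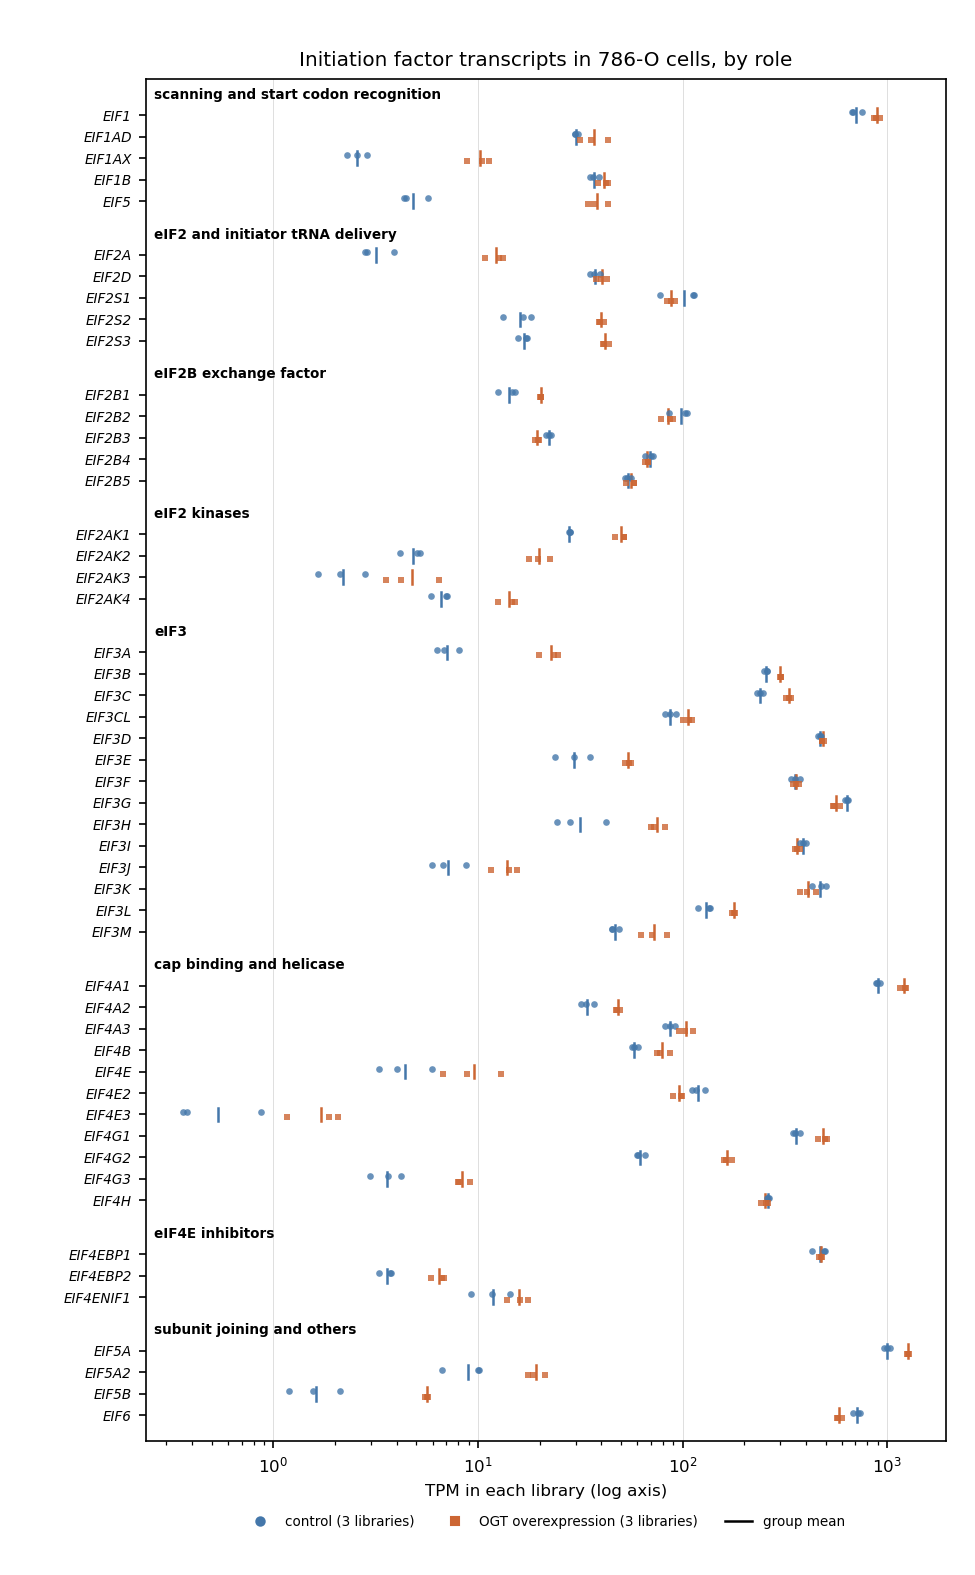
TPM of the tested initiation factor genes (rows, grouped by role, EIF1AY not drawn) in each of 3 control libraries (circles) and 3 OGT libraries (squares) on a log axis, with group means as vertical ticks. EIF5, EIF1AX, EIF2A, EIF2AK2 and EIF3A stand apart between the groups, while the groups overlap for EIF4EBP1, EIF3F and EIF4H.

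Part of this balance depended on how the libraries were scaled. After median centring 15 of the 52 tested members were higher and 17 lower, beside 15.3% and 24.2% of all tested genes. After quantile normalization 26 of the 52 were higher and 7 lower, beside 20.2% and 17.8%. Changes across all genes also followed the GC content and length of the transcript. With each library's trend on both removed, called the corrected change below, 15 of the 52 members were higher and 7 lower, beside 16.0% and 12.8%. The genes EIF1AX, EIF2A, EIF2AK1, EIF2AK2, EIF2S2, EIF2S3, EIF3A, EIF3E, EIF4G2 and EIF5 were called higher under these 3 alternatives and as deposited, and EIF4E2 was called lower under all of them. Among these, EIF2A, EIF2AK1, EIF2AK2, EIF3A, EIF4G2 and EIF4E2 share exon positions with SERP1, AIMP2, GPATCH11, NANOS1, CTR9 and TIGD1 on the opposite strand, and the library strand is not stated, so reads of the partners may be included. The share of all tested genes that kept a call under the 3 alternatives was not counted.

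**Figure D2:**
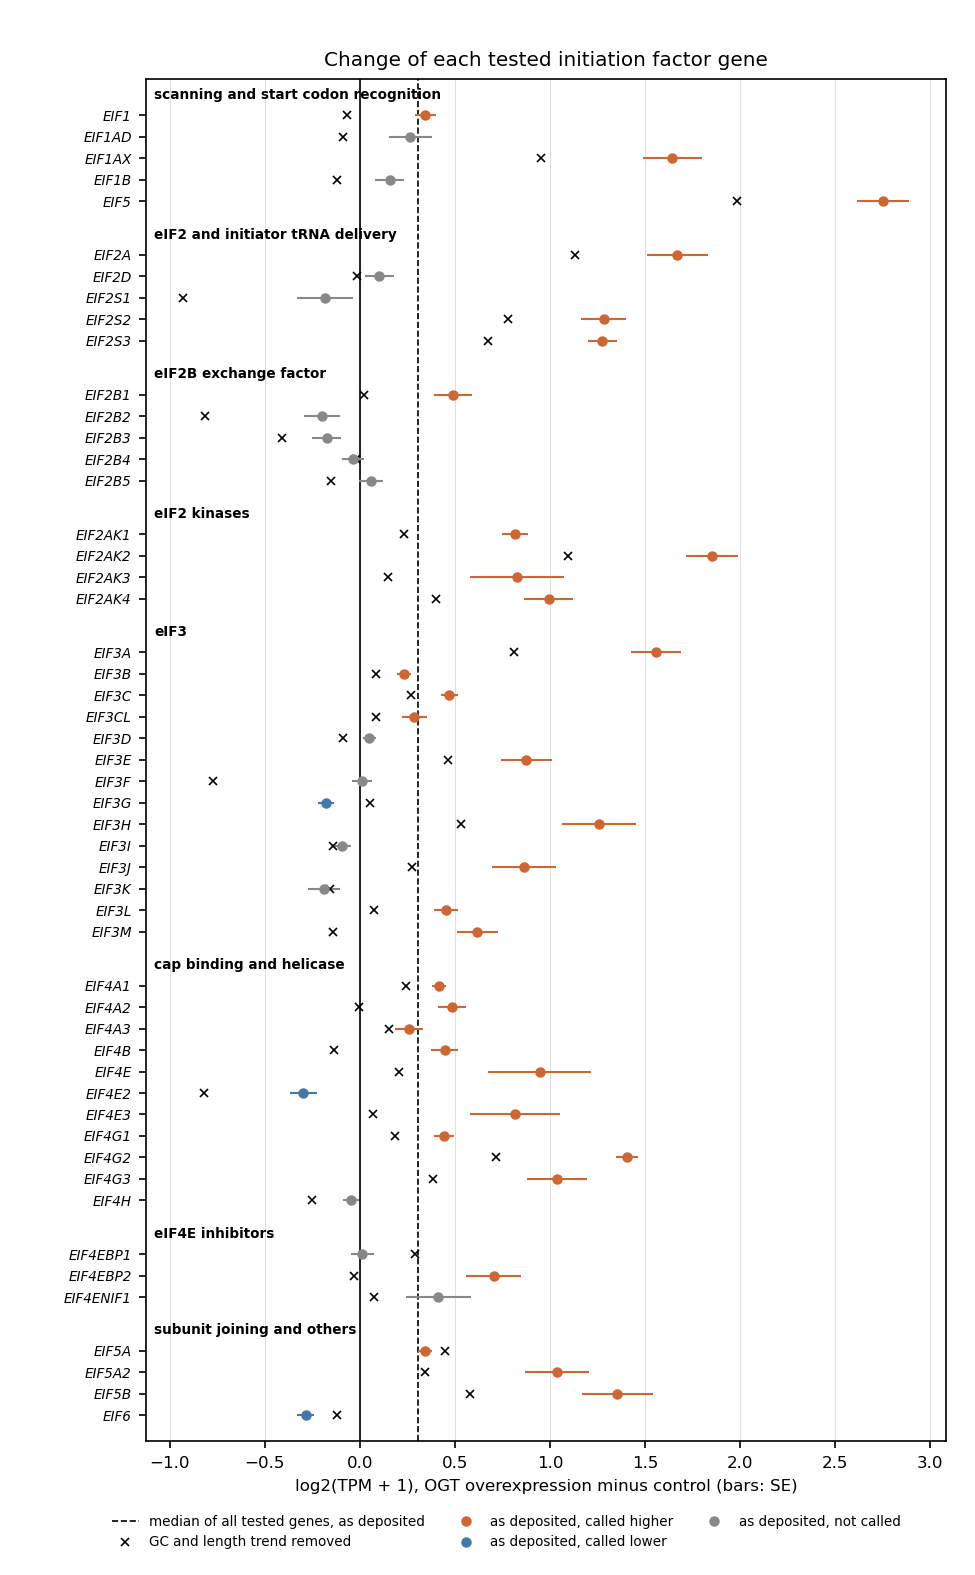
Change of each tested initiation factor gene (OGT minus control on log2(TPM + 1), points with SE, EIF1AY not drawn), coloured by its call, with the change after removal of the GC and length trend as a cross and the median of all tested genes (0.30) as a dashed line. EIF5 lies farthest to the right at 2.75, and most crosses lie to the left of their points.

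Start codon recognition held the largest rise. EIF5 (chromosome 14, 103333544 to 103345025, plus strand), which encodes the GTPase-activating protein that makes eIF2 hydrolyse GTP when the start codon is found, was 4.43, 4.36 and 5.69 TPM in the control libraries and 43.43, 34.5 and 36.93 TPM with OGT. Every OGT library stood far above every control library, from 4.83 ± 0.748 to 38.3 ± 4.62 TPM (log2 change 2.75, SE 0.137, limma adjusted p = 4.28e-05). Only 3 of the 12645 tested genes, OGT among them, had a larger log2 change, and the corrected change was 1.98 (adjusted p = 1.68e-04). EIF1AX (chromosome X, 20124518 to 20141844, minus strand), which encodes eIF1A, the partner of eIF1 in scanning, was 2.57, 2.87 and 2.29 TPM in the control libraries and 8.8, 10.44 and 11.37 TPM with OGT. It rose from 2.58 ± 0.29 to 10.2 ± 1.3 TPM (log2 change 1.64, SE 0.156, limma adjusted p = 3.16e-04), with a corrected change of 0.95.

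EIF1, which encodes the factor that holds the scanning ribosome open and rejects poor start sites, was far more abundant than EIF5 or EIF1AX, at 754.49, 670.95 and 681.68 TPM in the control libraries and 880.05, 926.81 and 865.77 TPM with OGT. It rose as deposited (log2 change 0.34, limma adjusted p = 0.00221), a direction that turned after median centring (-0.04) and after the correction (-0.07), neither of them called. EIF1B, its paralog with the same weak start, was 37 ± 1.99 TPM in control and 41.3 ± 2.29 TPM in OGT libraries and was not called (limma log2 change 0.16 with adjusted p = 0.126; after median centring -0.23, adjusted p = 0.036). EIF1AD was 30.2 ± 0.583 TPM in control and 36.8 ± 5.87 TPM in OGT libraries and was called higher without OGT replicate 2 (limma adjusted p = 0.0357, against 0.0962 with all libraries), with a sign that turned after the correction (-0.0917) and after median centring (-0.12). EIF1AY was tested and not called.

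Of the genes for the 3 subunits of eIF2, those for beta and gamma rose and that for alpha was not called as deposited. EIF2S1 (chromosome 14, 67359997 to 67386516), which encodes the alpha subunit that the stress kinases phosphorylate, was 114.26, 112.24 and 77.41 TPM in the control libraries and 88.08, 91.77 and 83.5 TPM with OGT. The groups overlap through control replicate 3, exons of ATP6V1D lie on the opposite strand, and the gene was not called (log2 change -0.18, limma adjusted p = 0.344), although without that library it was called lower at -0.36 (adjusted p = 0.00657). The corrected change was -0.93 (limma adjusted p = 0.00458), with a reference transcript of 4485 bases, 945 of them coding, which the cells may not express. Median centring, which uses no reference transcript, also gave a call of lower for EIF2S1 (-0.57, limma adjusted p = 0.0228). Quantile normalization gave no call (-0.30, limma adjusted p = 0.148). EIF2S2, encoding the beta subunit, was 18.07, 13.19 and 16.66 TPM in the control libraries and 39.16, 41.15 and 39.72 TPM with OGT, and it rose (log2 change 1.28, SE 0.119, limma adjusted p = 2.90e-04; corrected 0.78). EIF2S3, encoding the gamma subunit that binds GTP and the initiator tRNA, was 17.4, 15.78 and 17.14 TPM in the control libraries and 41.22, 43.84 and 40.9 TPM with OGT. It rose likewise (log2 change 1.27, SE 0.0766, limma adjusted p = 7.20e-05; corrected 0.67), with the reservation of its near copy EIF2S3B, which was 0.04 to 0.11 TPM in control and 0.26 to 0.63 TPM in OGT libraries. EIF2S1 stood highest of the 3 in every library, 4.65 to 8.51 times the lowest subunit in control and 2.10 to 2.25 times in OGT libraries.

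Another pair of members encode proteins that can bring tRNA to the ribosome without eIF2. EIF2A was 2.87, 3.89 and 2.79 TPM in the control libraries and 12.67, 13.29 and 10.81 TPM with OGT and rose (log2 change 1.67, SE 0.161, limma adjusted p = 3.30e-04; corrected 1.13), the largest change in this group and rank 102 of all tested genes. EIF2D was 37.3 ± 2.11 TPM in control and 40.2 ± 2.46 TPM in OGT libraries and was not called (log2 change 0.10, limma adjusted p = 0.309; after median centring -0.29, adjusted p = 0.0239).

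The 4 kinases that phosphorylate eIF2 alpha rose as deposited, where 39.1% of all tested genes did. After the correction 2 of them were called higher, and 3 after median centring and 3 after quantile normalization, beside 16.0%, 15.3% and 20.2% of all tested genes. EIF2AK2, which encodes PKR, the kinase that senses double-stranded RNA and is itself induced by interferon, was 5.05, 4.15 and 5.19 TPM in the control libraries and 17.77, 19.7 and 22.41 TPM with OGT, with no overlap (log2 change 1.85, SE 0.136, limma adjusted p = 1.38e-04; rank 43, corrected 1.09). EIF2AK1, which encodes the haem-regulated kinase HRI, was 28.12, 27.79 and 28.06 TPM in the control libraries and 51.71, 51.62 and 46.75 TPM with OGT (log2 change 0.81, limma adjusted p = 2.03e-04; corrected 0.23, adjusted p = 0.0255). It was the most abundant of the 4 in both groups. EIF2AK4, which encodes the amino acid sensor GCN2, rose from 6.62 ± 0.639 to 14.2 ± 1.4 TPM (log2 change 0.99, limma adjusted p = 9.99e-04), with no call after the correction (0.40, adjusted p = 0.0647). EIF2AK3, which encodes PERK, the kinase of the endoplasmic reticulum stress response, was 2.12, 1.66 and 2.81 TPM in the control libraries and 3.57, 6.46 and 4.19 TPM with OGT. Its rise (log2 change 0.83, limma adjusted p = 0.0287) was not called without OGT replicate 2 or 3 or control replicate 1 or 2 (adjusted p from 0.0548 to 0.0905), nor after the correction (0.15), quantile normalization or median centring (adjusted p = 0.683, 0.208 and 0.194).

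Of the 5 subunit genes of eIF2B, the exchange factor that reloads eIF2 with GTP, EIF2B1 was called as deposited. It encodes the alpha subunit, was 15.25, 12.57 and 14.66 TPM in the control libraries and 20.1, 20.3 and 20.3 TPM with OGT, and rose (log2 change 0.49, limma adjusted p = 0.00643), but was not called after the correction, quantile normalization or median centring (adjusted p = 0.874, 0.199 and 0.424). EIF2B2 was 97.9 ± 10.8 TPM in control and 85 ± 5.66 TPM in OGT libraries (log2 change -0.20, limma adjusted p = 0.12) and was called lower without control replicate 3 (-0.29, adjusted p = 0.0229). EIF2B3 was 22.2 ± 0.653 TPM in control and 19.5 ± 0.442 TPM in OGT libraries (log2 change -0.18, limma adjusted p = 0.0955). EIF2B2 and EIF2B3 were called lower after the correction (-0.82 and -0.41) and under both other scalings. The corrected change of EIF2B2 rests on a reference transcript of 4314 bases with 1053 coding bases, and which transcript the cells express was not tested. EIF2B4 was 69 ± 3.12 TPM in control and 67.2 ± 1.12 TPM in OGT libraries and EIF2B5 54 ± 1.67 TPM in control and 56.2 ± 2.75 TPM in OGT libraries, neither called as deposited (log2 change -0.04, limma adjusted p = 0.612 and log2 change 0.06, adjusted p = 0.487). After median centring both were called lower, EIF2B4 at -0.43 and EIF2B5 at -0.33, and EIF2B4 also after quantile normalization (-0.20, adjusted p = 0.0182). EIF2B1 was the lowest of the 5 transcripts in the control libraries and EIF2B3 the lowest in the OGT libraries, with EIF2B2 the highest throughout.

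eIF3 is the large scaffold that keeps the ribosomal subunits apart and binds eIF4G. Of its 14 genes 9 rose, EIF3G fell and 4 were not called, beside 39.1% higher and 9.70% lower among all tested genes. After the correction 3 were higher and 2 lower, shares near the 16.0% and 12.8% of all genes, and after median centring 3 were higher and 6 lower, beside 15.3% and 24.2%. EIF3A, which encodes the largest subunit, was 6.8, 8.07 and 6.29 TPM in the control libraries and 24.67, 23.49 and 19.93 TPM with OGT and rose (log2 change 1.56, SE 0.132, limma adjusted p = 2.09e-04; corrected 0.81). EIF3H, one of its MPN-domain subunits, was 42.37, 28.06 and 24.21 TPM in the control libraries and 69.98, 82.51 and 72.44 TPM with OGT. It rose (log2 change 1.26, limma adjusted p = 0.00236) and lost its call with the trend removed (0.53, adjusted p = 0.0701). EIF3E, a subunit with a PCI domain, was 35.16, 29.48 and 23.81 TPM in the control libraries and 54.74, 52.12 and 55.89 TPM with OGT and rose (log2 change 0.87, limma adjusted p = 0.00201; corrected 0.46, adjusted p = 0.0339). EIF3J, which encodes the loosely bound subunit that sits near the mRNA entry channel, rose from 7.17 ± 1.43 to 13.8 ± 1.98 TPM (log2 change 0.86), and had no call after the correction (0.27), quantile normalization or median centring.

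Among the other subunits that rose, EIF3C went from 239 ± 7.81 to 331 ± 8.94 TPM (log2 change 0.47, corrected 0.27, both called), with no call after median centring. EIF3L went from 129.7 ± 9.47 to 178 ± 2.84 TPM (log2 change 0.45), not called after the correction (0.07) or median centring (0.06). EIF3M went from 46.6 ± 2.27 to 72.4 ± 10.6 TPM (log2 change 0.62). It had no call after median centring (0.23), and its sign turned after the correction (-0.14, limma adjusted p = 0.32). That correction took a reference transcript of 5051 bases with 1122 coding bases. EIF3CL, the near copy of EIF3C, had a log2 change of 0.29 that turned to -0.10 after median centring (adjusted p = 0.267). EIF3B, which encodes the subunit that anchors EIF3G and EIF3I, was 256 ± 4.92 TPM in control and 301 ± 1.72 TPM in OGT libraries (log2 change 0.23, adjusted p = 0.00198), and after median centring it was called in the opposite direction (-0.16, adjusted p = 0.0375).

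The 5 most abundant eIF3 transcripts, those of EIF3G, EIF3D, EIF3K, EIF3I and EIF3F, had log2 changes between -0.19 and 0.05. EIF3G, which encodes an RNA-binding subunit, was 624.71, 637.84 and 641.22 TPM in the control libraries and 543.27, 552.4 and 587.08 TPM with OGT and fell (log2 change -0.18, limma adjusted p = 0.00961), but had a corrected change of 0.05 that was not called, and no call in limma without trend or robust fitting (adjusted p = 0.0893). EIF3D, whose product can itself bind the cap of some mRNAs, was 458.32, 470.58 and 476.88 TPM in the control libraries and 481.19, 490.86 and 481.59 TPM with OGT and was not called (log2 change 0.05, limma adjusted p = 0.274). EIF3F, EIF3I and EIF3K had log2 changes of 0.01, -0.09 and -0.19 and were not called (limma adjusted p = 0.878, 0.113 and 0.0961). EIF3I was called lower after the correction (-0.14, adjusted p = 0.0437) and quantile normalization (-0.12, adjusted p = 0.0476). EIF3K was called lower without OGT replicate 3 (-0.26, adjusted p = 0.0351) or without control replicate 1 (-0.25, adjusted p = 0.0481). The corrected change of EIF3F, -0.77 (adjusted p = 4.72e-04), rests on a reference transcript of 7540 bases with 1071 coding bases, and which transcript the cells express was not tested. After median centring EIF3D, EIF3F, EIF3G, EIF3I and EIF3K were called lower.

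The transcripts of the eIF3 subunits lay closer together in each OGT library than in any control library. Over the 13 genes EIF3A to EIF3M, the SD of log2 TPM was 2.21, 2.31 and 2.43 in the control libraries and 1.78, 1.73 and 1.82 in the OGT libraries. EIF3G was highest in all 6 libraries, 91.9 to 107 times the lowest subunit in control and 35.6 to 46.7 times in OGT libraries. The groups do not overlap in either measure, and the exact two-sided permutation test on the SD gave p = 0.1, the smallest that 20 assignments of 3 against 3 allow. The same SD over the 3 eIF2 subunits lay between 1.27 and 1.71 in control and between 0.607 and 0.655 in OGT libraries, also with no overlap and an exact permutation p = 0.1. Over the 5 eIF2B subunits it lay between 1.112 and 1.245 in control and between 0.966 and 1.018 in OGT libraries, with the same outcome. The spread over other sets of genes was not computed, so the narrowing is not shown to be particular to these complexes. With the GC and length trend removed, the eIF3 SD on log2(TPM + 1) was 2.05, 2.12 and 2.23 in control and 1.87, 1.83 and 1.92 in OGT libraries, again without overlap. The groups did not overlap then for eIF2 or eIF2B either. These are spreads of TPM, which do not show amounts of protein.

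Of the 11 tested genes of cap binding and unwinding 9 rose (8 of 10 without EIF4E3) and EIF4E2 fell, beside 39.1% and 9.70% of all tested genes. After the correction 3 were higher and 2 lower, beside 16.0% and 12.8%. EIF4G2 (chromosome 11, 10797050 to 10809110, minus strand), the gene with the GTG start, encodes DAP5, an eIF4G relative that does not bind eIF4E. Exons of SNORD97 and, on the opposite strand, of CTR9 overlap it. It was 65.33, 60.67 and 59.74 TPM in the control libraries and 159.43, 173.74 and 163.55 TPM with OGT and rose (log2 change 1.40, SE 0.0587, limma adjusted p = 3.08e-05; corrected 0.72, adjusted p = 2.22e-04). The correction took a transcript of EIF4G2 of 4001 bases at 43.1% GC. The start shown above comes from another annotated transcript, of 1969 bases with 1332 coding bases and 0 bases after them. That transcript may be cut short at its 3′ end, and which one the cells express was not tested. EIF4G1, the main scaffold, was 348.03, 353.59 and 375.45 TPM in the control libraries and 506.36, 496.84 and 461.33 TPM with OGT and rose (log2 change 0.44, limma adjusted p = 6.12e-04; corrected 0.18, adjusted p = 0.00874). EIF4G3, a low paralog of EIF4G1, rose from 3.6 ± 0.616 to 8.39 ± 0.682 TPM (log2 change 1.04, limma adjusted p = 0.00199) but lost its call with the GC and length trend removed (0.39). EIF4G1 had no call after median centring.

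The cap-binding protein gene EIF4E was low and scattered, at 5.95, 3.29 and 4.03 TPM in the control libraries and 12.99, 6.78 and 8.85 TPM with OGT. It was called higher (log2 change 0.95, limma adjusted p = 0.0245), but not without OGT replicate 1 or 3 or control replicate 2 or 3 (adjusted p from 0.0571 to 0.0733), and not after the correction (0.20), quantile normalization or median centring (adjusted p = 0.581, 0.142 and 0.129). The correction of EIF4E, also in its ratios below, took a reference transcript of 11523 bases with 651 coding bases, which the cells may not express. EIF4E2, which encodes 4EHP, a cap-binding relative that can repress translation, was 128.85, 115.73 and 110.64 TPM in the control libraries and 90.21, 99.25 and 98.58 TPM with OGT. It fell (log2 change -0.30, SE 0.0725, limma adjusted p = 0.0134), was called lower in every alternative that was run and had a corrected change of -0.82. That correction took a reference transcript of 3525 bases at 46.9% GC, whereas the principal transcript of EIF4E2 has 1604 bases at 52.8% GC, and which one the cells express was not tested. EIF4E3, a further relative, was 0.36, 0.38 and 0.87 TPM in the control libraries and 2.06, 1.17 and 1.88 TPM with OGT, and its call (log2 change 0.82, adjusted p = 0.0253) was lost without OGT replicate 1 or 3 or control replicate 1 or 2 (adjusted p from 0.0644 to 0.0793) and under the correction and both other scalings.

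Of the helicase genes, EIF4A1, the main eIF4A of growing cells and one of the most abundant members, was 882.77, 927.92 and 896.22 TPM in the control libraries and 1231.27, 1220.07 and 1159.8 TPM with OGT and rose (log2 change 0.42, limma adjusted p = 2.64e-04; corrected 0.24, adjusted p = 0.00601). EIF4A2 rose from 34.2 ± 2.45 to 48.2 ± 1.24 TPM (log2 change 0.48), with a corrected change of -0.00269. Both overlap annotated exons of small nucleolar RNA genes, EIF4A1 also a readthrough gene with SENP3, so their values are uncertain. Neither was called after median centring (0.03 for EIF4A1 and 0.10 for EIF4A2). EIF4A3, which works in the exon junction complex rather than in initiation, rose from 86.6 ± 5 to 104 ± 8.15 TPM (log2 change 0.26), turned to -0.13 after median centring, and lost its call without OGT replicate 1 or 3 or control replicate 1 or 2 (adjusted p from 0.0587 to 0.0672) or under the correction or quantile normalization. EIF4B and EIF4H encode cofactors of eIF4A. EIF4B rose from 58.2 ± 2.01 to 79.8 ± 6.33 TPM (log2 change 0.44), a sign that turned after the correction (-0.14, limma adjusted p = 0.139). It had no call after median centring (0.06). EIF4H was 262 ± 3.94 TPM in control and 254 ± 10.8 TPM in OGT libraries and was not called as deposited (log2 change -0.05, limma adjusted p = 0.413). It was called lower after the correction (-0.25, limma adjusted p = 0.00449) and after median centring (-0.44, adjusted p = 6.26e-04).

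Of the genes that restrain eIF4E, EIF4EBP1, which encodes 4E-BP1, was 428.5, 490.44 and 497.05 TPM in the control libraries and 466.21, 477.85 and 480.68 TPM with OGT. The groups overlap and the gene was not called (log2 change 0.01, limma adjusted p = 0.888), while after median centring it was called lower (-0.38) and after the correction higher (0.29), so no direction is given for it. EIF4EBP2 was 3.72, 3.28 and 3.75 TPM in the control libraries and 6.7, 6.81 and 5.88 TPM with OGT and rose (log2 change 0.70, limma adjusted p = 0.00669), with no call after quantile normalization or median centring and a sign that turned after the correction (-0.03, adjusted p = 0.887). For EIF4EBP2 the correction took a reference transcript of 7257 bases with 360 coding bases. EIF4ENIF1, which encodes the eIF4E transporter 4E-T, was 11.8 ± 2.58 TPM in control and 15.9 ± 1.89 TPM in OGT libraries, not called with all libraries (log2 change 0.41, limma adjusted p = 0.0843) and called higher without control replicate 1 (0.56, adjusted p = 0.0295).

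Of the factors that act at or after subunit joining, EIF5B, which encodes the GTPase that joins the large subunit, was 1.56, 2.12 and 1.19 TPM in the control libraries and 5.66, 5.72 and 5.53 TPM with OGT. It rose (log2 change 1.35, SE 0.188, limma adjusted p = 0.00132), with a corrected change of 0.58 (adjusted p = 0.0654). EIF5A encodes the hypusine-bearing factor now known for elongation and termination, and was the most abundant member in each of the 6 libraries, at 964.72, 1003.17 and 1031.61 TPM in the control libraries and 1285.33, 1254.06 and 1262.21 TPM with OGT. It rose as deposited (log2 change 0.34, limma adjusted p = 4.09e-04) and after the correction (0.45), and turned to -0.05 after median centring (adjusted p = 0.46). Its paralog EIF5A2 rose from 8.95 ± 1.94 to 19.2 ± 1.93 TPM (log2 change 1.04, limma adjusted p = 0.0026), a call lost with the GC and length trend removed (0.34). For EIF5A2 the correction took a reference transcript of 5593 bases with 459 coding bases. EIF6, which encodes the factor that keeps free large subunits from joining, was 736.16, 722.62 and 680.48 TPM in the control libraries and 570.28, 578.06 and 604.92 TPM with OGT and fell (log2 change -0.29, limma adjusted p = 0.00195). It was lower in every alternative that was run, though not called after the correction (-0.12, adjusted p = 0.0836).

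Ratios of members within a library do not change when its TPM values are multiplied by a constant, but the trend on GC content and length does not cancel in them. Each log2 difference of a ratio is therefore followed by its corrected value, on log2(TPM + 1) with that trend removed, an alternative chosen after seeing the data. The ratio of EIF5 to EIF1 was 0.00587, 0.0065 and 0.00835 in control and 0.0493, 0.0372 and 0.0427 in OGT libraries, a log2 difference of 2.65 (corrected 2.05). EIF1AX to EIF1 was 0.00341, 0.00428 and 0.00336 in control and 0.01, 0.0113 and 0.0131 in OGT libraries (1.64, corrected 1.02). Both were higher in every OGT library than in any control library, with and without the trend.

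EIF4G2 to EIF4G1 was 0.188, 0.172 and 0.159 in control and 0.315, 0.35 and 0.354 in OGT libraries (0.98, corrected 0.53). EIF4E2 to EIF4E was 21.7, 35.2 and 27.4 in control and 6.95, 14.6 and 11.1 in OGT libraries (-1.40, corrected -1.03), with EIF4E as the scattered term. EIF3A to EIF3I had a log2 difference of 1.78 (corrected 0.95) and EIF2S1 to EIF2B1 of -0.71 (corrected -0.96). The groups of these 4 ratios do not overlap, as deposited or corrected.

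In the other ratios the groups overlapped, as deposited or corrected, or the sign turned once the trend was removed. EIF4EBP1 to EIF4E was 72, 149 and 123 in control and 35.9, 70.5 and 54.3 in OGT libraries (-1.09), but the corrected value was 0.0855 and the groups then overlap. EIF5A2 to EIF5A went from 0.78 to -0.11, where the groups overlap. EIF4EBP2 to EIF4EBP1 went from 0.84 to -0.32, with no overlap in either setting. EIF4G3 to EIF4G1 went from 0.79 to 0.20, with overlap. EIF4A2 to EIF4A1 was 0.0418, 0.0346 and 0.0376 in control and 0.0386, 0.0407 and 0.0409 in OGT libraries, and the groups overlap as deposited (0.08, exact permutation p = 0.5). Its corrected difference was -0.25, and the groups then did not overlap (exact permutation p = 0.1). EIF2AK4 to EIF2AK1 overlapped both as deposited (0.26, exact permutation p = 0.3) and corrected (0.17). As deposited, the 10 ratios whose groups do not overlap had a two-sided exact permutation p = 0.1 each, the smallest possible here, and 0.12 after Benjamini-Hochberg adjustment over the 12 ratios, so no ratio could pass 0.05 in this design. Such separation was common among single genes as well, with 5841 higher and 1563 lower of 12645 tested. Its share among ratios of other genes was not computed.

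**Figure D3:**
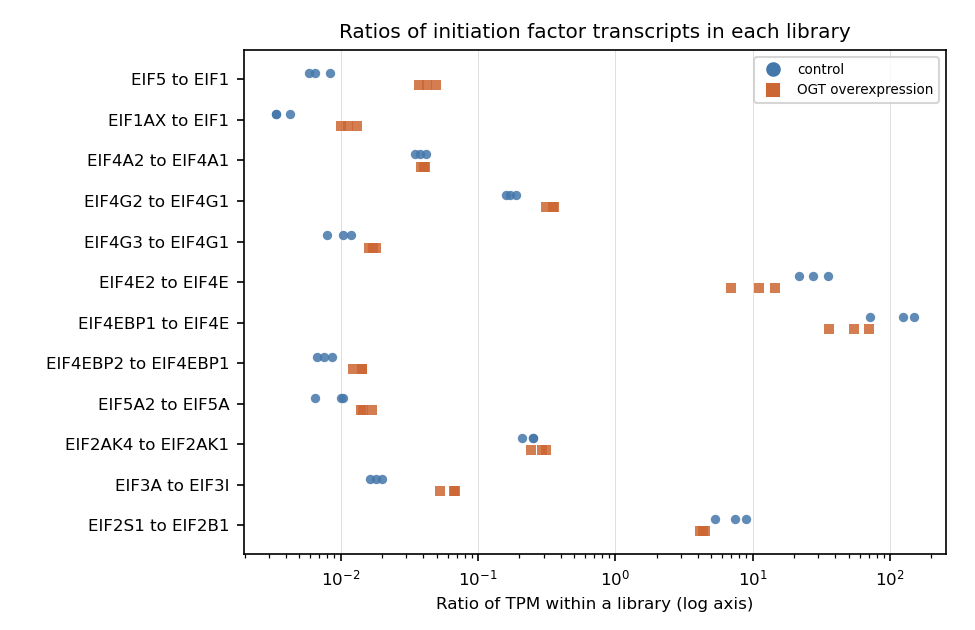
TPM ratio of 12 pairs of initiation factor genes within each library (log axis), with control libraries as circles and OGT libraries as squares. The EIF5 to EIF1 ratio stands farthest apart, between 0.00587 and 0.00835 in control and between 0.0372 and 0.0493 in OGT libraries, while EIF4A2 to EIF4A1 and EIF2AK4 to EIF2AK1 overlap. TPM is as deposited, with no GC and length correction.

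The members' changes followed the GC content of their transcripts, as those of all genes did. Across the 52 tested members, which are not independent replicates and share the same libraries, the Spearman correlation of change with GC content was -0.64 and with transcript length 0.50, against -0.47 and 0.39 across 12348 genes. Of 22 members with at most 45% GC, 18 rose (81.8%, against 55.7% of all tested genes in that range) and 4 were not called, and their median log2 change was 0.91 against 0.70. EIF5, EIF1AX, EIF2AK2, EIF2A, EIF3A and EIF4G2 belong to this group. Of 16 members between 45 and 52% GC, 10 rose (62.5%, against 45.6%), and EIF4E2 fell. Of 14 members above 52% GC, 5 rose (35.7%, against 24.6%) and EIF3G and EIF6 fell, with a median of 0.05 against 0.07. EIF2S1 and EIF3F had GC contents of 39.2% and 40.6% and were not called higher, and EIF4EBP1 had the highest GC content of the tested members at 65.5%. With the GC and length trend removed, the median of the 22 members with at most 45% GC was 0.37, against 0.06 for all tested genes in that range.

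**Figure D4:**
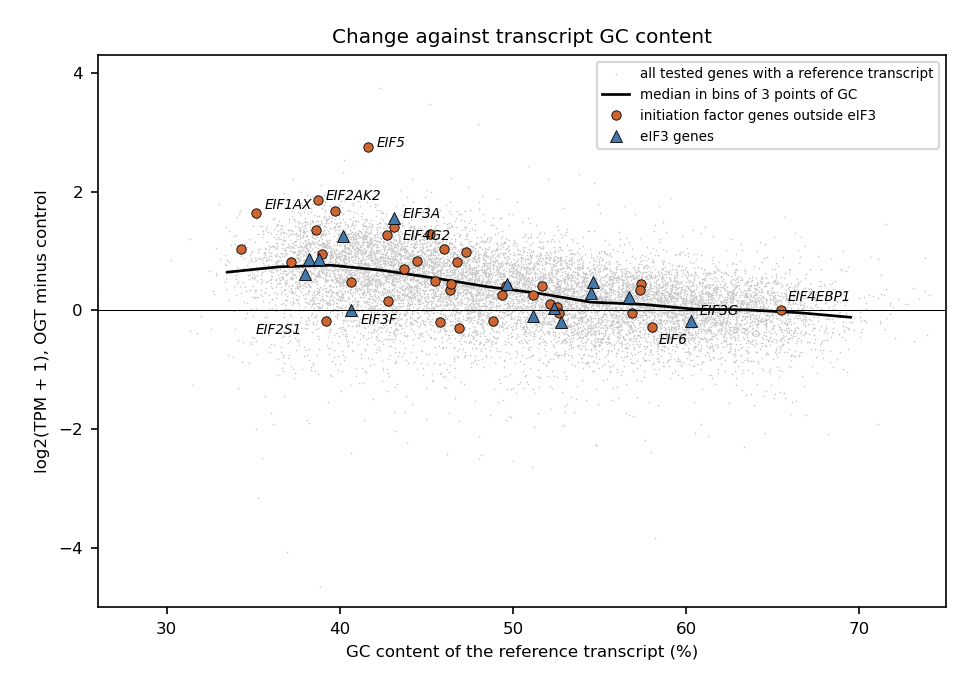
Change on log2(TPM + 1), OGT minus control, against the GC content of the reference transcript, for all tested genes with one (grey dots, line for the median in bins of 3 points of GC holding at least 20 genes), initiation factor genes outside eIF3 (circles) and eIF3 genes (triangles), EIF1AY not drawn. EIF5 lies far above the line at 2.75, and EIF2S1 and EIF3F lie below it.

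Other genes of the pathway were read from fixed lists, and their counts stand beside the same background of 39.1% higher and 9.70% lower. For all these lists, the background was 16.0% higher and 12.8% lower after the correction, and 15.3% and 24.2% after median centring. Of 21 tested initiation partners without an EIF symbol, 19 rose and MIF4GD and MCTS1, named here after their values were seen, were not called, with 11 higher after the correction and 16 higher and 1 lower after median centring. YBX1, which encodes an mRNA-packaging cold shock protein, rose from 299.8 ± 6.79 to 568 ± 20.7 TPM (0.92 on the log2 scale, corrected 0.92). The helicase gene DDX3X rose from 9.89 ± 0.321 to 29.3 ± 1.37 TPM (1.47, corrected 0.71). Of 6 tested termination and recycling genes 5 rose, ABCE1 of the preceding list among them, with 2 higher and 1 lower after the correction and 3 higher after median centring. GSPT1, which encodes release factor eRF3a, went from 44.9 ± 2.31 to 99.2 ± 6.89 TPM (1.12, corrected 0.34).

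Around eIF2 phosphorylation, 11 of 17 stress response genes rose (10 of 16 without DNAJC3, which passed the filter only through the OGT libraries) and PPP1CA fell, with 6 higher after the correction and 3 higher and 3 lower after median centring. PPP1CB, which encodes a catalytic subunit of the phosphatase that reverses eIF2 phosphorylation, rose from 4.54 ± 0.656 to 13.7 ± 0.582 TPM (1.42, corrected 0.70). PPP1CA, which encodes another catalytic subunit, was 568 ± 13.5 TPM in control and 517 ± 3.78 TPM in OGT libraries (-0.13), with a corrected change of 0.02. NCK2, which encodes a signalling adaptor, rose from 18.5 ± 1.54 to 33.3 ± 2.17 TPM (0.81, corrected 0.74). ASNS, a gene that ATF4 induces, rose from 135 ± 4.13 to 196 ± 7.95 TPM (0.54), and was not called after the correction (0.15) or median centring (0.15). ATF4, whose translation rises when eIF2 is phosphorylated, was 567 ± 13.2 TPM in control and 581 ± 9.01 TPM in OGT libraries and was not called (log2 change 0.04, limma adjusted p = 0.409), though it was called lower after median centring (-0.35, adjusted p = 6.95e-04). ATF4 was named after its value was seen, and transcript levels do not show its translation.

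In the mTORC1 and MNK list 6 of 13 genes rose and 3 fell, with 2 higher and 1 lower after the correction and 1 higher and 5 lower after median centring. DDIT4, which encodes the mTORC1 inhibitor REDD1, rose from 552 ± 2.87 to 773 ± 7.51 TPM (0.48, corrected 0.56), with no call after median centring (0.0944, adjusted p = 0.107). MKNK2, which encodes a kinase that phosphorylates eIF4E, fell from 220.1 ± 3.73 to 170.3 ± 6.75 TPM (-0.37, corrected -0.51). Of 16 elongation genes 3 rose and 3 fell, with 1 higher and 5 lower after the correction and 1 higher and 10 lower after median centring. EEF1A1, which encodes the factor that delivers aminoacyl-tRNA, rose from 1182 ± 21.3 to 2528 ± 9.02 TPM (1.10, corrected 0.48). EEF1B2, EEF1G and EEF1D, which encode its exchange factor complex, fell, with log2 changes of -0.78, -0.48 and -0.37 (corrected -0.87, -0.43 and -0.36, each called).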

How the data were processed

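Total RNA from 786-O cells was sequenced from 6 libraries. The authors deposited TPM (scaled by transcript length and by library) for 62703 human Ensembl genes. The aligner, counter, annotation and library strand are not stated in what was used here, and the submitters' processing notes name mouse builds. Columns were tied to samples by title. Library totals were 993935.5 to 996951.6 TPM, and TPM keeps no read depth, so no counting interval is given.

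The test covered 12645 genes that reached 1 TPM in 3 or more libraries. It was run by limma 3.58.1 (R 4.3.3) on values of log2(TPM + 1) (trend and robust eBayes, two-sided), for OGT minus control. P-values were adjusted by Benjamini-Hochberg over all tested genes, with a threshold of 0.05. The test was tried on simulated data. Alternatives were a pseudocount of 0.1, no filter, quantile normalization, median centring, a correction that regresses each library's deviations from the gene means on GC and length (splines with 4 degrees of freedom) and removes the fit, each library left out with the same genes tested, a replicate block, and limma without trend or robust fitting. GC content, length, positions and start codons came from GENCODE release 29 (GRCh38), which may not be the authors' annotation. GC content and length were those of the longest protein-coding transcript of a gene, or its longest transcript where none was coding. The cells may express another one. All 56 members matched it by identifier. Of the 52 tested members, 28 overlap an exon of a gene on the opposite strand. As the library strand is not stated, reads from both may not have been told apart. On the same strand, 7 of the tested members overlap an exon of another gene. Exact permutation tests were used for ratios within a library.

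Members could be named whatever their values, with up to 3 called genes per direction of each other list. A gene that this rule names is not reported here. The members and lists were chosen with earlier results of these data known. EIF1AY is Y-linked and was counted without giving its level. Replicate numbers were not treated as pairs.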

Additional observations from a re-analysis of the deposited data

How the results depend on the processing

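Among 51 tested members other than EIF1AY, 10 that rose and EIF4E2 kept direction and call in every alternative that was run. How many of all tested genes did so was not counted. All tested genes numbered 2558 higher and 2245 lower after quantile normalization, 1937 and 3066 after median centring, and 1974 higher with the GC and length trend removed, and 3899 to 4604 higher and 989 to 1127 lower with 1 library left out. Members called numbered 7 lower after quantile normalization, 15 higher and 17 lower after median centring, and 15 and 7 with the trend removed, and 29 to 33 higher and 3 to 5 lower with 1 library left out, 5 of them lower without control replicate 3. Genes of the pathway lists numbered 11 lower after quantile normalization, 23 higher and 19 lower after median centring, 22 higher with the trend removed, and 4 lower without trend or robust fitting, and 38 to 43 higher and 5 to 7 lower with 1 library left out. Among members called under either setting, median centring turned the sign of EIF1 (-0.0448), EIF1B (-0.23), EIF2B5 (-0.33), EIF2D (-0.29), EIF3B (-0.16), EIF3CL (-0.10), EIF3D (-0.34), EIF3F (-0.38), EIF4A3 (-0.13), EIF4EBP1 (-0.38) and EIF5A (-0.0467). Removing the trend so turned EIF1 (-0.067), EIF3F (-0.77), EIF3G (0.0546), EIF3M (-0.14), EIF4A2 (-0.00269), EIF4B (-0.14) and EIF4EBP2 (-0.0301). Signs of uncalled changes also turned, for EIF1AD under both and for EIF1B, EIF2B5, EIF2D and EIF3D with the trend removed. In an alternative added after seeing the data, removing the trend turned the log2 ratio differences of EIF4A2 to EIF4A1 (-0.25), EIF4EBP1 to EIF4E (0.0855), EIF4EBP2 to EIF4EBP1 (-0.32) and EIF5A2 to EIF5A (-0.11), and moved EIF1AX to EIF1 (1.02), EIF4G2 to EIF4G1 (0.53), EIF4G3 to EIF4G1 (0.20), EIF2AK4 to EIF2AK1 (0.17) and EIF3A to EIF3I (0.95). The cause was not tested. With a replicate block 32 members were higher and 5 lower (EIF2AK3 lost its call, EIF2B2 and EIF3K gained one). Same-numbered libraries had deviation correlations of -0.0194, 0.00264 and 0.0166, and 1 of 6 libraries correlated best with its own number, so the numbers were not used as pairs. With no filter EIF2AK3, EIF4A3, EIF4E and EIF4E3 lost their calls. Depth is unknown from TPM.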

Other observations

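Of the 83 EIF names left out by the rule, 55 were listed at 0 in every library and 2 reached 1 TPM in at least 3 libraries. EIF5AP4, a pseudogene by its name, was 4.98, 6.64 and 6.06 TPM in control and 5.44, 5.9 and 6.38 TPM in OGT libraries, and the groups overlap. EIF3J-DT, a divergent transcript by its name, was 3.58, 3 and 1.6 TPM in control and 2.56, 1.82 and 3.09 TPM in OGT libraries, with overlap too.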
